A study of Mus musculus with 2 samples.

Results

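The Z-disc genes described here are 10 genes taken by symbol: the actinins Actn1, Actn2 and Actn3, the myozenins Myoz1, Myoz2 and Myoz3, and Myot, Tcap, Ldb3 and Flnc. Each symbol matched 1 gene identifier, so the set holds 10 of the 55536 annotated genes in the tables and 10 of 22028 protein-coding genes. Their levels were read from total RNA-seq of the gastrocnemius, the large calf muscle, of male B6CASTF1/J mice, an F1 hybrid strain, at an age of 10 days. There was 1 group of 2 libraries, labelled as biological replicates 1 and 2. Each was made from 300 ng of RNA with ERCC spike-in RNAs added, and no treatment or genotype contrast was labelled. The labels number the animals differently but give both the same donor code.

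The Z-disc is the plate that borders each sarcomere, the contractile unit of striated muscle. Thin filaments of neighbouring sarcomeres enter it from both sides and are crosslinked by alpha-actinin, and titin, telethonin (Tcap), myotilin (Myot), the myozenins, Ldb3 and filamin C (Flnc) bind there in a dense network. In muscle, Actn2 is made in all fibres and Actn3 in fast fibres, while Myoz2 is known from slow fibres and heart and Myoz1 from fast fibres.

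Expected counts came to 38874862 over all features in the library of replicate 1 and to 38160786 in the other. The libraries differed by more than sampling noise (chi-square of 22.7 per degree of freedom over 10967 genes) and were treated as separate samples. Among 6 genes that mark skeletal fibres, all were present, with a median of 9949 TPM, the relative abundance of transcripts scaled for their length. Of 5 heart markers, Nppa, Nppb and Myl7 had 0 counts in both libraries, and the 5 summed to 1.14 and 0.72 TPM. With 1 group of 2 libraries no difference was tested: an exact two-sided sign-flip test cannot give a p below 0.5. Levels come from the deposited gene tables and the transcript tables made with them, and were set beside another deposited quantification of the same libraries, made straight from the reads and called the other table. Values are given per library, as mean ± SD with n = 2, and ratios with 95% intervals that cover counting error only.

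Several results turn on short stretches of coding sequence that distinguish forms of Flnc and Actn1, and on the end of an Actn3 intron. They are printed 5′ to 3′ from GENCODE M21 transcripts on mm10, with the alternative part in capitals and up to 12 flanking bases of the spliced transcript in lower case. In Flnc it is the 99-base exon of the hinge in the rod, at chr6:29452799-29452897 on the plus strand. In Actn1 they are a pair of mutually exclusive exons in the calcium-binding end of the protein, at chr12:80170686-80170766 and chr12:80170183-80170248 on the minus strand. In Actn3 they are the 14 bases, at chr19:4863545-4863558 on the minus strand, that the retained-intron transcript holds and the coding transcript does not.
Flnc 99-base exon: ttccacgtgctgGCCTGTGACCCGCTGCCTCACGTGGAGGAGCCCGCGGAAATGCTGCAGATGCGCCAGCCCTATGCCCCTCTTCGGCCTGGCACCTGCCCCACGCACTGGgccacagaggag
Actn1 81-base exon: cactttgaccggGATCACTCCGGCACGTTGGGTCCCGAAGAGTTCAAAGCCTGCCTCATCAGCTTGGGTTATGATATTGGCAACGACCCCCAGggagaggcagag
Actn1 66-base exon: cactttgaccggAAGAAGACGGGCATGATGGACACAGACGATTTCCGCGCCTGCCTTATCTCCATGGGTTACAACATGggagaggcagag
Actn3 intron end: ACTCTCCTTCCCAGgtcagaaagctg

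All 10 genes were expressed at 1 TPM or more in both libraries, over a range from 12.5 to 1940 TPM. Their median was 260.9 TPM in replicate 1 and 324.6 in replicate 2 (293 ± 45.0), against 8.86 TPM for the 10967 protein-coding genes whose expected counts averaged at least 100. By mean TPM the order was Actn3, Myoz1, Actn2, Ldb3, Tcap, Myot, Flnc, Myoz2, Myoz3 and Actn1. In that order the ranges of Myoz1 and Actn2, Actn2 and Ldb3, and Tcap and Myot overlapped, and those of the other neighbours did not. Compared within each library, Actn2 was above Ldb3 in both. Myoz1 and Actn2 changed places between the libraries, as did Tcap and Myot. Actn3 stood 30th among protein-coding genes, Actn1 4178th.

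**Figure D1:**
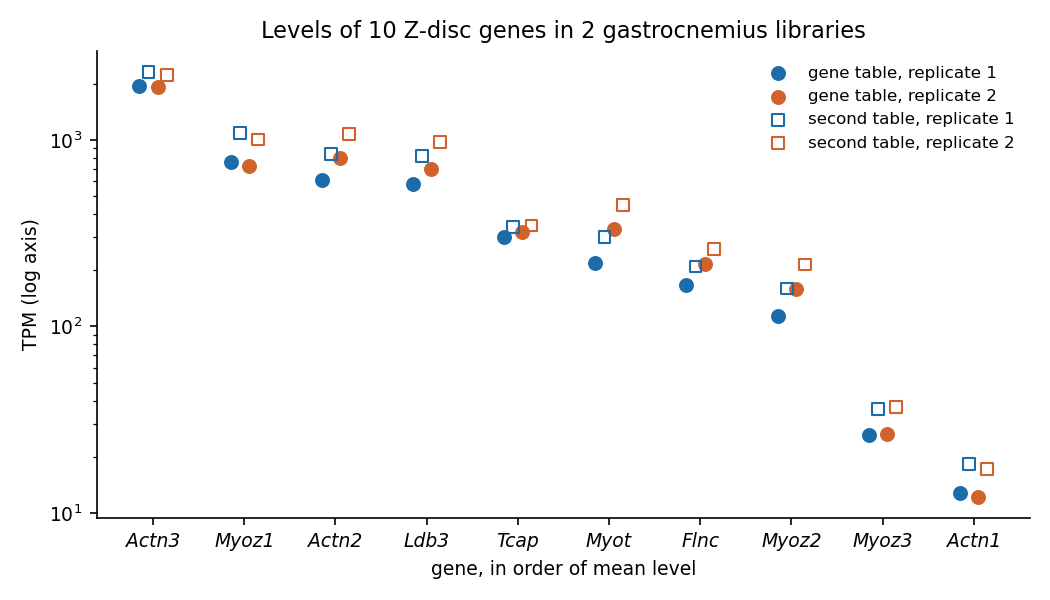
Level of each of the 10 Z-disc genes in TPM on a log axis, in replicate 1 (blue) and replicate 2 (orange); filled circles are the gene tables and open squares the transcript tables of the other quantification, summed per gene. Actn3 lies above all others in both libraries, and Myoz3 and Actn1 lie below the other 8.

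Actn3, the fast-fibre actinin, had 1952 and 1927 TPM in replicates 1 and 2 (1940 ± 17.5). Actn2, the actinin of all striated fibres, had 608 and 794 TPM (701 ± 132). Both libraries thus held more Actn3 than Actn2, and the libraries lay much closer together for Actn3. Actn3 made up 76.2% and 70.8% of the summed TPM of this pair (73.5% ± 3.84), which is 3.21 and 2.43 times the level of Actn2. Both genes together gave 53.1% ± 1.19 of the TPM of all 10 members. Actn1, the actinin of non-muscle and smooth muscle cells, had 12.75 and 12.23 TPM, or 0.464% ± 0.0337 of the 4 actinins. Actn4, the other non-muscle actinin and not a member, had 38.4 and 42.3 TPM and a share of 1.497% ± 0.0385.

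The actinin genes resemble each other, which matters for how reads were assigned. The coding sequences of Actn2 and Actn3 were identical at 75.4% of aligned bases, those of Actn1 and Actn2 at 77.3% and those of Actn1 and Actn3 at 76.1%. Of the 50-base windows of the leading Actn2 and Actn3 transcripts, 2 were found in the other gene, 0.0675% and 0.0705% of all windows. Actn1 shared 10.2% of its windows with Actn4 and with Gm47766 and Gm47767, which are annotated antisense to it. Gm47766 had 2 and 5 counts and Gm47767 had 0 in both libraries. The sources used here do not say whether reads were counted by strand, and Actn1 is the least certain of the actinins.

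The myozenins, which bind alpha-actinin, filamin C and the phosphatase calcineurin, also differed widely in level. Myoz1 had 764 and 724 TPM (744 ± 28.3), Myoz2 had 114 and 158 TPM (136 ± 31.1) and Myoz3 had 26.1 and 26.6 TPM (26.3 ± 0.325). The libraries did not overlap between any of these 3 genes. Myoz1 took 84.5% and 79.7% of the summed myozenin TPM (82.1% ± 3.41), Myoz2 took 12.6% and 17.4% (14.99% ± 3.38) and Myoz3 took 2.89% and 2.93% (2.91% ± 0.0260). The second place belonged to Myoz2 in both libraries, at 4.35 and 5.92 times the level of Myoz3. Of the 50-base windows of Myoz3, 3.72% occurred in transcripts of 287 other genes, while Myoz1 and Myoz2 shared none.

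Filamin C, the muscle member of a family of actin crosslinkers, had 167 and 216 TPM (192 ± 34.4). Its widely expressed relative Flna had 47.9 and 53.5 TPM (50.7 ± 3.92). Flnc was the higher of the pair in both libraries, without overlap.

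**Figure D2:**
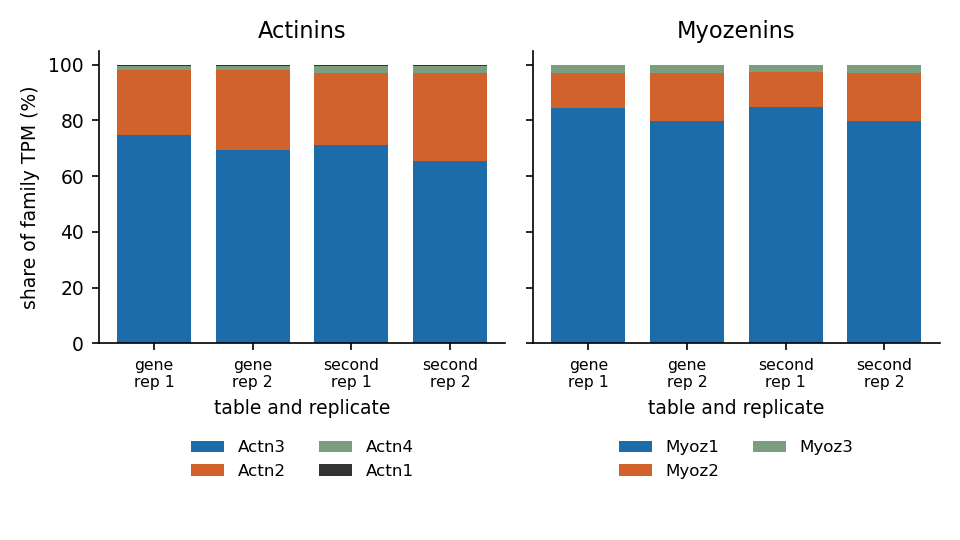
Share of the summed TPM of each gene family (%), stacked by gene, for replicates 1 and 2 in the gene tables and in the other quantification. Actn3 and Myoz1 take the largest share in all 4 columns of their panels, and the share of Actn3 and of Myoz1 is smaller in replicate 2 than in replicate 1 in both tables.

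Tcap encodes telethonin, the small protein that caps the ends of titin molecules in the Z-disc. It had 303 and 318 TPM (311 ± 10.9), with 8342 and 8776 expected counts. Myot, whose protein binds alpha-actinin and filamin C and bundles actin, had 219 TPM in replicate 1 and 331 in replicate 2 (275 ± 79.2). Tcap lay within the range of Myot, which was the member with the widest spread as a ratio of its libraries, though Actn2 and Ldb3 had larger SDs in TPM. Ldb3, whose PDZ domain binds alpha-actinin, had 578 and 698 TPM (638 ± 84.7). Set against the sum of Actn2 and Actn3, Ldb3 was 4.43 and 3.90 times lower, Tcap 8.45 and 8.54 times lower, and Myot 11.7 and 8.23 times lower.

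The sources of these levels are genes on 8 chromosomes, given here on mm10. Actn3 lies at chr19:4861216-4877909, Actn2 at chr13:12269426-12340760 and Actn1 at chr12:80167547-80260371. Myoz1 (chr14:20649107-20656540) and Ldb3 (chr14:34526603-34588682) share a chromosome, as do Myot (chr18:44334074-44355724) and Myoz3 (chr18:60573750-60591788). Myoz2 lies at chr3:123006206-123035015, Tcap at chr11:98383811-98384953 and Flnc at chr6:29433256-29461883. Tcap, Flnc and Myot are on the plus strand and the other 7 on the minus strand.

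Of the 10 members, 9 had a higher scaled count in replicate 2 than in replicate 1, as did 6132 of all 10967 protein-coding genes compared. The median log2 ratio was 0.24, against 0.02 over all 10967 protein-coding genes compared. The exception was Myoz1. For Actn3 the direction was reversed with library totals and with TPM, and for Actn1 with TPM, which left 8 and 7 members higher. Only Myot passed 1.5-fold: its 14747 and 22318 expected counts gave a log2 ratio of 0.67 (95% interval 0.64 to 0.70), or 1.59-fold. In the background 1.71% of genes passed 1.5-fold in either direction, and here 1 of 10 did. At a lower bar of 25% above the other library, 4 members were higher in replicate 2, where 5.62% of all genes were. No member was lower in replicate 2 at that bar, where 4.08% of all genes were.

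The 4 members past that bar were Myot, Myoz2, Actn2 and Flnc. Myoz2 had 3912 and 5438 expected counts and a log2 ratio of 0.55 (0.49 to 0.60). Actn2 had 56846 and 73732 counts, a ratio of 0.45 (0.43 to 0.46). Flnc had 43400 and 54816 counts, a ratio of 0.41 (0.39 to 0.43). Each lay further apart than counting error, and the spread between mice cannot be estimated from 1 pair. For comparison, the absolute log2 ratio of all genes had a median of 0.11 and a 95th percentile of 0.41.

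Next came Ldb3, with 42009 and 49040 counts and a log2 ratio of 0.29 (0.27 to 0.31). Tcap had a ratio of 0.14 (0.10 to 0.19) and Myoz3 one of 0.10 (0.02 to 0.17). Actn3 was nearly level, with 154212 and 150201 counts and a ratio of 0.03 (0.02 to 0.04). Myoz1 was level as well, with 27218 and 25896 counts and a ratio of -0.0018 (-0.03 to 0.02). In the actinin pair, Actn3 lay level and Actn2, made in all fibres, was higher in replicate 2. Among the myozenins, Myoz1 lay level, Myoz2 was higher and Myoz3 lay between them. Whether fibre type had a part in these ratios was not tested. Actn1, with 1121 and 1214 counts, had a count ratio of 0.18 (0.07 to 0.30) but a TPM ratio of -0.06.

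Markers of fibre type and of other cells moved between the same libraries. All 8 slow-fibre genes had more scaled counts in replicate 2 (median log2 ratio 0.61), and their summed level was 965 TPM in replicate 1 and 1328 in replicate 2. The 8 fast-fibre genes had a median of 0.06 and summed to 59409 and 58019 TPM. The 7 smooth muscle and mural markers all had more scaled counts (median 0.36), as did 6132 of all 10967 protein-coding genes compared. They summed to 408 and 472 TPM, of which Acta2 gave 227 and 275. By TPM, Pdgfrb (17.4 and 17.0) and Mcam (45.6 and 44.7) were lower in replicate 2. The count ratio of Pdgfrb was 0.04 (-0.03 to 0.11). The 4 endothelial markers were all higher (median 0.20, 133 and 140 TPM), and the 5 fibroblast markers were all lower (median -0.13, 3691 and 3385 TPM). No marker of these lists was at 0. Their part in the members' ratios was not tested, and in bulk tissue fewer cells of a type and less RNA per cell cannot be told apart.

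**Figure D3:**
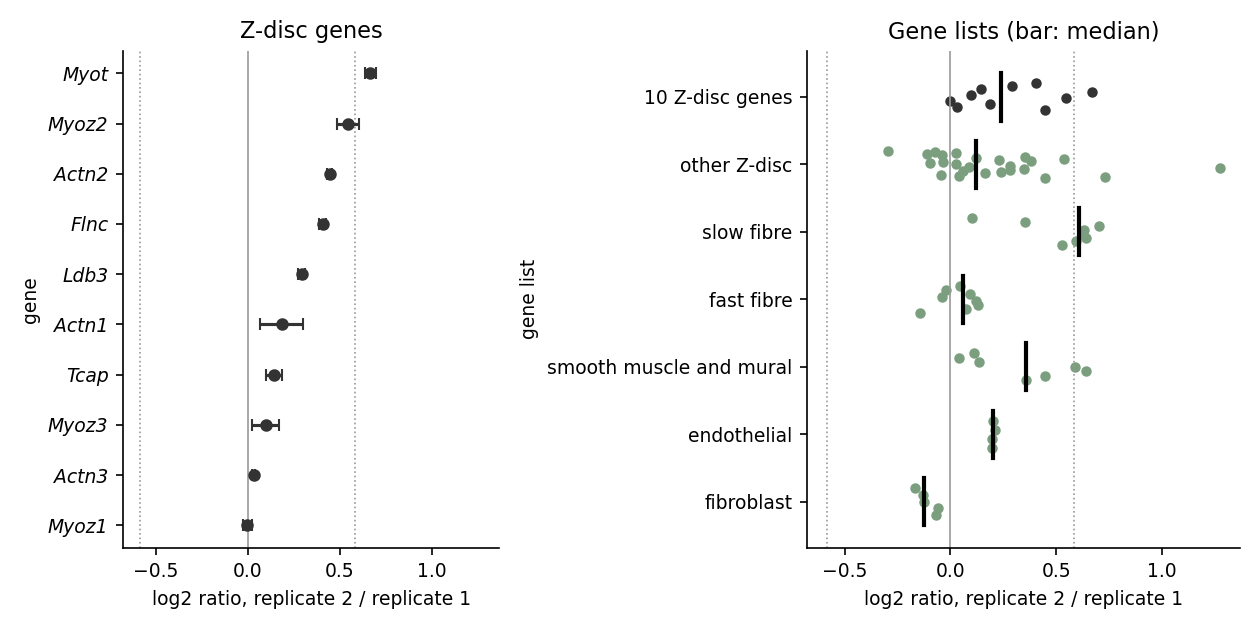
Log2 ratio of replicate 2 over replicate 1. Left, each of the 10 Z-disc genes with its 95% counting interval; right, every gene of 7 lists whose expected counts averaged at least 100 (points) and the list median (bar); dotted lines mark 1.5-fold. Of the 10 Z-disc genes on the left, only Myot lies beyond a dotted line, and the slow-fibre list has the highest median, 0.61.

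Other genes of the Z-disc were read from a list of 26. Of these, 25 reached a mean expected count of 100 (Nebl did not). The median log2 ratio of the 25 was 0.12. Among them 18 were higher and 7 lower in replicate 2, where 6132 of all 10967 genes were higher and 4835 lower. At 25% higher 7 passed, where 5.62% of all genes did, and 2 passed 1.5-fold, where 1.71% did. Those 2 were Xirp1, an actin-binding repeat protein, with 24.8 and 53.7 TPM (log2 ratio 1.28, 1.22 to 1.33), and Ankrd2, a stretch-responsive ankyrin repeat protein, with 27.7 and 43.6 TPM (0.73, 0.61 to 0.85). The 4 highest were the giant proteins Ttn, with 1688 and 1397 TPM, and Neb, with 1598 and 1471 TPM, the intermediate filament gene Des, with 631 and 698 TPM, and the LIM protein gene Fhl1, with 520 and 652 TPM. Actn3 exceeded each of them in both libraries. Ttn and Neb were lower in replicate 2 (log2 ratios of -0.29 and -0.07), whereas Des (0.23) and Fhl1 (0.35) were higher.

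At the level of transcripts, 38 transcripts were annotated for the 10 genes, and the same transcript led in both transcript tables for 10 of 10 genes. Tcap and Myoz3 have 1 annotated transcript. Ldb3, with 8 transcripts, divided its TPM between a short and a long kind of form. Its leading transcript, Ldb3-207, had 402 and 492 TPM and took 69.6% and 70.5% of the gene (70.0% ± 0.622). It ends in a last exon of its own (chr14:34561261-34561881) after 288 codons, and so keeps the PDZ part and lacks the LIM domains, the zinc-binding modules of the long forms. Transcripts with the LIM end summed to 176 and 206 TPM (191 ± 21.4). Chief among them was Ldb3-205, of 684 codons, with 20.4% ± 1.42 of the gene, ahead of Ldb3-208, of 622 codons, with 7.57% ± 0.997.

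Short and long forms were both higher in replicate 2, by log2 TPM ratios of 0.29 and 0.23. Their proportion was the same to within 1 percentage point in the libraries. The 204-base exon by which skeletal muscle forms are known, called skeletal-type here, took 98.1% and 98.5% (98.3% ± 0.238) of the TPM of transcripts with either it or the heart-type exon (chr14:34576986-34577344). That left 10.7 and 10.6 TPM for heart-type forms, 1.69% ± 0.238, all of it given to Ldb3-201. The other quantification gave Ldb3-201 1.65 and 1.43 TPM and another heart-type form, Ldb3-202, 10.2 and 9.88 TPM. A 15-base exon that follows the skeletal-type exon was in 99.6% ± 0.0404 of the TPM with that exon. A 186-base exon of the linker before the LIM domains (chr14:34555343-34555528) was in 77.4% and 72.0% of the TPM with the LIM end (74.7% ± 3.85).

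**Figure D4:**
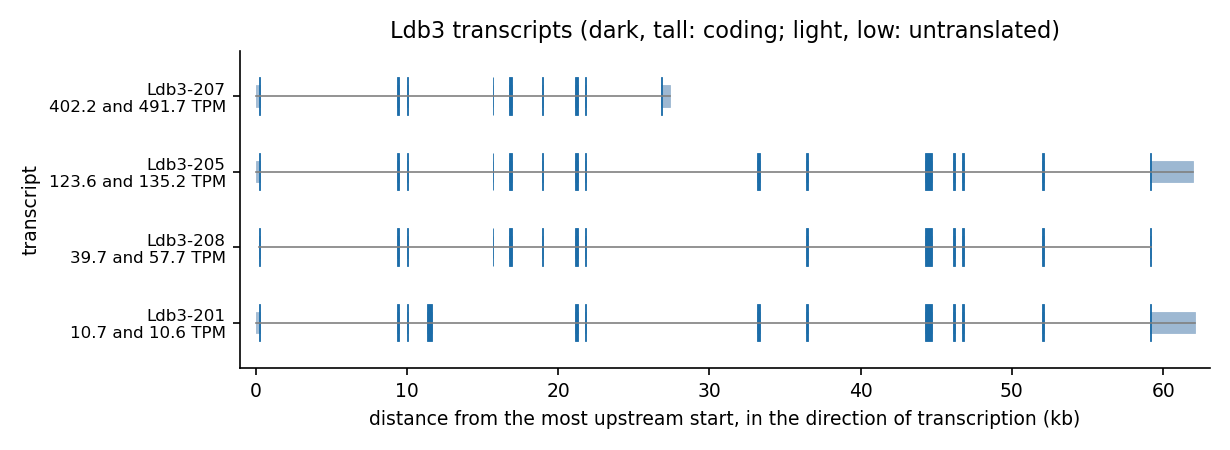
Exons of 4 Ldb3 transcripts against the distance from the most upstream start in kb, coding parts dark and tall and untranslated parts light and low, with the TPM in replicates 1 and 2 beside each name; exons shorter than 0.05 kb are drawn at that width. Ldb3-207 ends far upstream of the others and has the highest TPM in both libraries, and Ldb3-201, a heart-type form, has the lowest of the 4.

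In Flnc the transcript without the hinge exon led: Flnc-202 had 83.0% ± 1.82 of the gene. The 99-base hinge exon was in 5.36% and 5.80% of the TPM of transcripts with the next exon (5.58% ± 0.315), so over 9 in 10 coding transcripts lacked it in both libraries. A retained-intron transcript of 1151 bases, Flnc-203, took 12.1% ± 1.63, against 2.87% ± 0.326 in the other table. In Actn1 the 81-base exon, known from non-muscle cells, took 71.1% and 65.2% of the TPM with either exon of the pair (68.2% ± 4.15), and the 66-base exon, known from smooth muscle, took the rest. These 2 exons were identical at 42 of 66 aligned bases. Smooth muscle and mural markers also had more scaled counts in replicate 2, though Pdgfrb and Mcam were lower by TPM, as given with the marker lists. Their part in this share was not tested.

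The other quantification changed some of these shares and left others. No member differed by 1.5-fold between the tables once each table was centred on its median gene, where 6.35% of all genes did. After this centring the widest gaps were for Tcap, at 0.761 of its centred level in the gene table, Actn3, at 0.802, and Flnc, at 0.841. In TPM without centring, each of these genes was higher in the other table. Tcap had 303 and 318 TPM in the gene tables and 340 and 347 in the other table. By mean, Myot (375 TPM) stood above Tcap (344 TPM) in that table, and the order of the other 8 was the same. Within its libraries Myot was below Tcap in replicate 1 (302 and 340 TPM) and above it in replicate 2 (448 and 347 TPM). Ldb3-207 kept the lead with 66.5% ± 0.584, the skeletal-type exon took 98.7% ± 0.241 and the hinge exon of Flnc 7.18% ± 0.0550.

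Some leading transcripts had a larger share in one table than in the other. For Actn3, the first transcript table gave the retained-intron transcript Actn3-202 19.4% ± 1.32 and the other table gave it 0%, so that Actn3-201 moved from 80.6% to 100%. Actn3-202 is 982 bases long, of which only the 14 bases printed earlier are not in Actn3-201. For Myot, Myot-201 had 74.0% ± 0.106 in one table and 99.98% in the other. Its partner Myot-202 has 0 bases of its own and the same coding sequence. For Actn2, Actn2-201 had 98.0% ± 0.552 and 91.7% ± 7.26, and its partner in the other table, Actn2-203, likewise has 0 bases of its own and the same coding sequence. Myoz1-201 had 89.7% ± 0.361 and 99.4% ± 0.466, and the retained-intron transcript Myoz1-203 has 64 bases of its own among 405. Flnc-202 had 83.0% ± 1.82 and 90.2% ± 0.356, and its retained-intron partner Flnc-203 has 364 bases of its own among 1151.

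**Figure D5:**
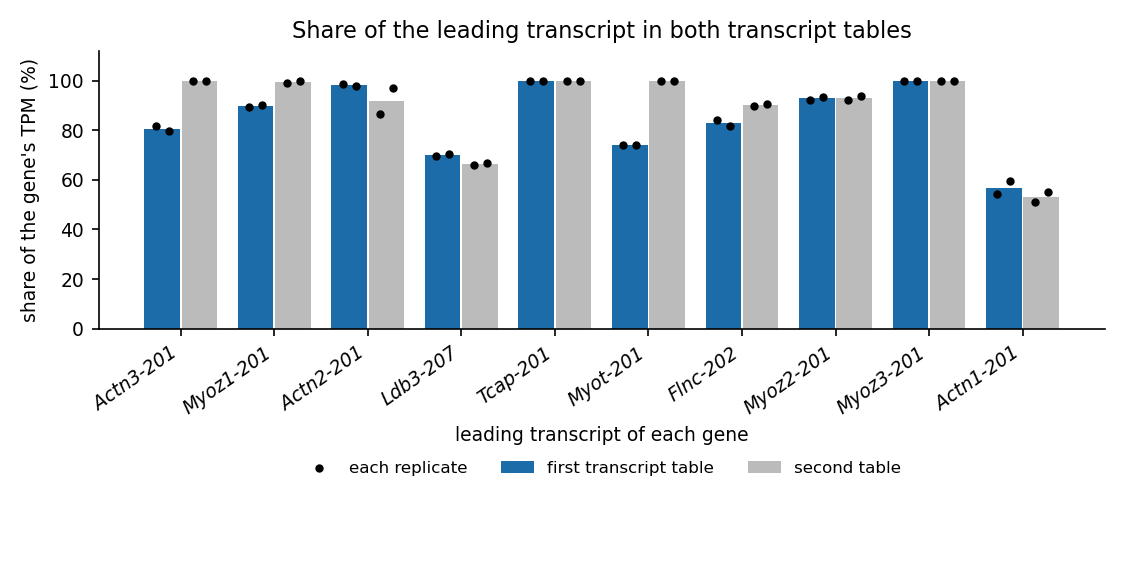
Share (%) of the leading transcript in its gene's TPM, for each of the 10 Z-disc genes in order of level, in the first transcript table (blue) and the other (grey); bars are means of 2 libraries and dots the libraries. The widest gaps between tables are for Myot-201 and Actn3-201, and Tcap-201 and Myoz3-201 are at 100% because their genes have 1 transcript.

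Promoter sequences from RefSeq (GRCm38.p6) were read for 5 members: Actn1, Actn2, Myoz2, Ldb3 and Flnc. Entries on the chromosome that holds Myot and Myoz3 were left out, so neither of those genes was examined. The promoters of Actn2 and Myoz2 are printed as the 250 bases before the RefSeq start, 5′ to 3′ on the minus strand. They lie at chr13:12340733-12340982 and chr3:123034988-123035237. Capitals mark the letters CANNTG, the general E-box pattern, which is not specific to the MyoD family. As a pattern it reads alike on both strands, though a single site need not.
Actn2 promoter: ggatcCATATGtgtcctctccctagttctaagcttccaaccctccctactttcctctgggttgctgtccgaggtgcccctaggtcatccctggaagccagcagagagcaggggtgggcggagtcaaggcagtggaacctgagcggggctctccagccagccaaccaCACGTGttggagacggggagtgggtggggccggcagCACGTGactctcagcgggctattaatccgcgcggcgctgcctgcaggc
Myoz2 promoter: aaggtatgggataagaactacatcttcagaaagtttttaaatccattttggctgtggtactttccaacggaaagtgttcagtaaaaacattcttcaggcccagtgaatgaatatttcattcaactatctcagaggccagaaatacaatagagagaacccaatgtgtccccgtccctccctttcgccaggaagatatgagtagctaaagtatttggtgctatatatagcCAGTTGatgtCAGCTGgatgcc
The Actn2 window held 3 E-boxes and the Myoz2 window 2. Of 32851 mouse promoters cut in the same way, 66.2% held at least 1 and 12.2% at least 3, so the letters are common. The Myoz2 window also held 1 match to the MEF2 consensus, searched on both strands, starting 33 bases before the start and overlapping neither E-box, a match found in 1.69% of promoters. Actn1 had 1 E-box. The Ldb3 and Flnc windows had no E-box, but both Ldb3 windows held 1 match to the CArG consensus, found in 1.47% of promoters, and 1 of the 2 Flnc windows held an MCAT match (the letters CATTCC, both strands searched), found in 12.6%. A match of letters is a description of the sequence and does not show that a factor was bound.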

How the data were processed

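Gene and transcript tables of the 2 libraries hold expected counts, TPM and, per transcript, the percent of its gene, as deposited by the authors on mm10 with GENCODE M21 from transcriptome alignments, in the column layout of RSEM per the file headers. Other quantities in them, the bounds of a credibility interval, were deposited by the authors and not used. A further deposited transcript table in the layout of kallisto gives estimated counts and TPM. It was summed per gene by gene identifier. The sources used here do not give the aligner, the program versions or the use of strand.

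Expected counts were rounded and scaled by TMM in edgeR 4.0.16 (R 4.3.3) over annotated genes with a mean of 10 or more; spike-ins and the 26249 features with a bare number or phiX as identifier were left out. Log2 ratios of the libraries, replicate 2 over replicate 1, were taken with 0.5 added as prior count, with exact binomial (Clopper-Pearson) intervals at 95%; without molecular identifiers these cover counting error only. Ratios between tables used 0.1 TPM as pseudocount. The background is protein-coding genes whose expected counts averaged at least 100; all 10 members passed this. Alternatives included DESeq2 1.42.0 size factors. In simulated counts over 11497 genes, the median log2 ratio of genes given the same fold erred by at most 0.0235. Single genes were not held to that bound. The simulated counts held sampling noise only, whereas these libraries differed by more (chi-square of 22.7 per degree of freedom). Exon shares are sums of TPM over transcripts holding the exon; sequence identity came from global alignment in Biopython 1.88.

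The members and gene lists were chosen with earlier results of these data known. Named beside the members are their relatives Actn4 and Flna, the 4 other Z-disc genes with the highest mean TPM and the 2 with the largest ratio, and transcripts with a mean of 10% or more of their gene; further transcripts and list genes were chosen after seeing their values. A planned comparison and a sequence are not reported here.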

Additional observations from a re-analysis of the deposited data

How the results depend on the processing

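With the other transcript table, the median level of the members was 359 in place of 293 TPM, and with TPM rescaled to nuclear protein-coding genes it was 666. Leaving out each replicate gave 260.9 to 325 TPM for that median, 70.8% to 76.2% for the share of Actn3 in the Actn2 and Actn3 pair and 79.7% to 84.5% for Myoz1 in the myozenins. With the other transcript table these shares were 70.4% and 82.4%, a move of less than 1 SD. With the posterior mean TPM, a further estimate in the gene tables, they were 73.5% and 82.1%. Leaving out 1 of 2 libraries always moves a mean by less than its SD, so that alternative could not show a larger move. The count of members past 1.5-fold between the libraries was 1 under each scaling and table tried, where 1.62% to 2.91% of all genes passed. Filters on low counts could not change it, since every member lay far above them. The share of all genes was 4.32% with a minimum mean count of 20 and 14.5% with no filter. With the bar at 25%, 4 members passed, where 9.69% of all genes did. TPM in place of scaled counts was added after seeing the data. The log2 ratio of Myot ranged from 0.60 to 0.68, of Myoz2 from 0.47 to 0.55, of Actn2 from 0.38 to 0.48 and of Flnc from 0.36 to 0.43. No member passed 1.5-fold between the tables under any alternative run, each replicate left out included. No paired analysis was possible because there is 1 group. The 2 libraries allow no estimate of the spread between mice beyond these pairs of values.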
